A study of Bos taurus with 40 samples.

Results

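Thyroid hormone acts through a small set of proteins that make, inactivate, store and read the hormone inside a cell, and the genes of that set were followed here in 4 tissues of Korean cattle. The genes were the iodothyronine deiodinases DIO1, DIO2 and DIO3, the nuclear thyroid hormone receptors THRA and THRB, and CRYM, which encodes mu-crystallin, a protein of the cytosol that binds thyroid hormone. They were chosen by symbol for their part in the pathway, by a rule that uses no measured value, although earlier results of these data were known. Of the 6 genes listed, 5 were among the 13570 genes of the count tables, and THRB was not analysed here. Each of the 5 had reads and so was among the 13148 genes tested.

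Liver, abdominal fat, longissimus dorsi muscle of the back and pituitary gland of 5 cows and 5 bulls each gave 1 RNA-seq library, 40 in all. All 10 animals were Korean cattle, a beef breed, slaughtered at over 22 months of age, and no treatment or altered allele is named for any of them. Animals are numbered from 1 to 5 within a sex, and the numbers do not pair cows with bulls. The tissues were taken whole, so that in every result fewer cells of a type and less RNA per cell cannot be told apart.

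The thyroid secretes mostly thyroxine (T4), a precursor with low activity at the receptor, and deiodinases decide how much active triiodothyronine (T3) a cell sees. DIO2 removes an iodine from the outer ring of T4 and so makes T3 within the cell, DIO3 removes an iodine from the inner ring and inactivates both T4 and T3, and DIO1, the enzyme of liver, kidney and thyroid, can do either. All are selenoproteins. T3 then binds THRA or THRB, nuclear receptors that sit on DNA with a retinoid X receptor, and in the pituitary gland T3 made by DIO2 takes part in the feedback on thyrotropin.

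The libraries held 5173092 to 19165864 reads on named genes (median 10005607). The tissue labels were checked with marker genes: 6 liver markers summed to at least 133089 CPM (counts scaled to the size of the library, with TMM factors) in each liver and to at most 1881 CPM in any other tissue, and the corresponding values were 5448 and 663 CPM for 4 fat markers, 85472 and 144 CPM for 5 muscle markers, and 82844 and 388 CPM for 8 markers of the anterior pituitary. A pair of libraries stood apart. The liver library labelled bull 3 had 0 reads on the 3 Y-linked genes DDX3Y, USP9Y and ZFY, where the other bulls had 69.6 to 110.8 CPM, and 1401 CPM of XIST, the RNA of the inactive X chromosome, where cows had 681 to 2179 CPM and the other bulls at most 0.936 CPM. Its nearest library was the liver of cow 4, at a Pearson r of 0.992 over genes. The fat library of bull 5 had 2.16 CPM on the Y-linked genes, against 39.98 to 44.8 CPM in the other bulls, and the lowest mean correlation with the other fat libraries, 0.911 against 0.926 to 0.960. Both were kept under their labels, and the fold changes by sex that are given for members in liver and fat come with and without them.

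**Figure D1:**
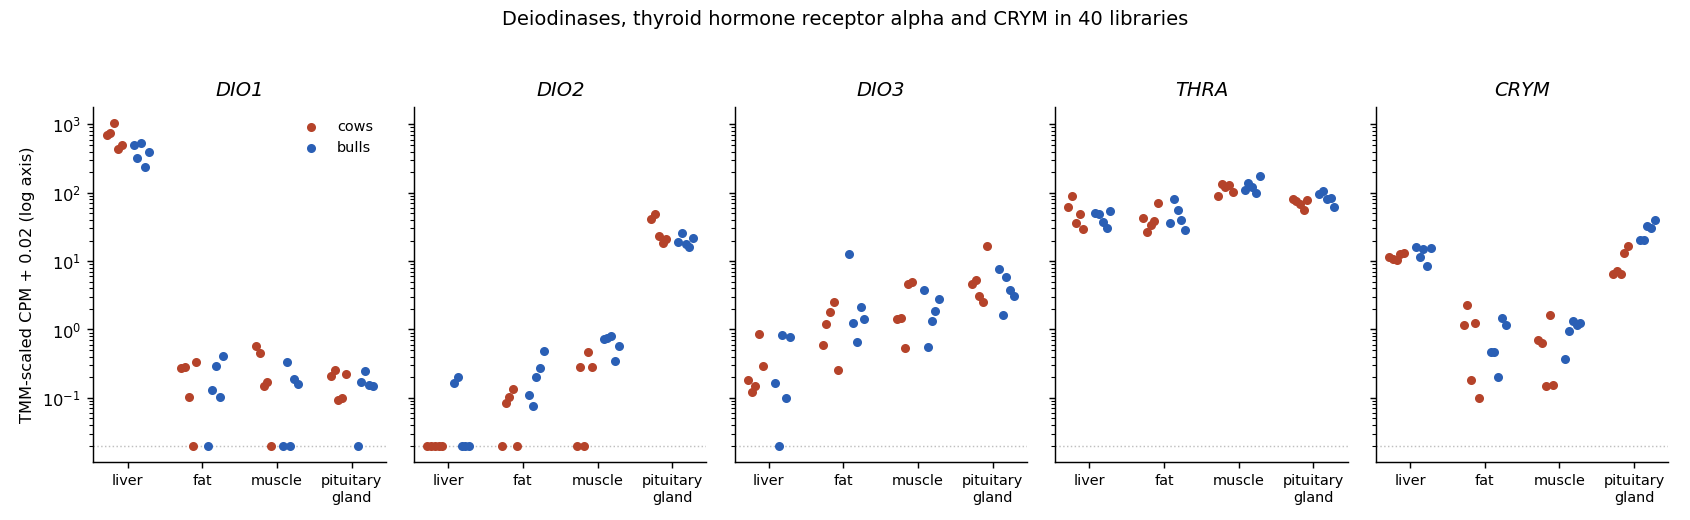
Expression of DIO1, DIO2, DIO3, THRA and CRYM in each of the 40 libraries, as TMM-scaled CPM with 0.02 added on a log axis, by tissue. Each point is a library, red for cows and blue for bulls, and points on the dotted line had 0 reads. DIO1 was high in liver alone and DIO2 in pituitary gland alone, THRA was present in every library, and CRYM was high in liver and pituitary gland.

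DIO1, the deiodinase of liver, was a liver transcript in these animals. In liver, cows 1 to 5 had 688, 751, 1041, 429 and 495 CPM, and bulls 1 to 5 had 507, 325, 542, 237 and 390 CPM. Every liver library thus held at least 1816 reads of DIO1, and no library of another tissue held more than 5. Summed over the 10 libraries of a tissue, fat held 25 reads, muscle 16 and pituitary gland 23.

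Liver exceeded fat by a log2 fold change of 11.48, muscle by 11.26 and pituitary gland by 11.72, with edgeR quasi-likelihood adjusted p-values of at most 6.92e-26. In pooled reads the ratio of liver was 1871 to fat (95% interval 1267 to 2891), 2657 to muscle (1636 to 4649) and 2087 to pituitary gland (1391 to 3293). Those ratios use library sizes without TMM factors, and the intervals cover counting error only. The traces outside liver, 0.0352 to 0.0520% of the liver level by library size, can be set beside 6 liver markers in the same tissues. ALB, which encodes albumin, stood at 0.0266 to 0.0501% of its liver level and FGB, a fibrinogen chain, at 0.0239 to 0.0408%, while the other 4 markers exceeded the traces of DIO1 in 1 tissue or more, up to 62.1% for APOA1 in fat. Whether the traces came from the tissues themselves was not tested. No difference between the 3 tissues with traces of DIO1 passed the test (adjusted p between 0.428 and 0.722).

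Among livers, the lower mean of the bulls did not pass the test. Cows had 681 ± 241 CPM (SD, n = 5) and bulls 400 ± 126 CPM, a log2 fold change of -0.73 with a standard error (SE) of 0.33. In M1, the model fitted to the 10 libraries of a tissue with sex as its only term, the edgeR likelihood ratio test (LRT) gave an adjusted p of 0.575. Cows 1, 2 and 3 lay above every bull, and cows 4 and 5 lay within the range of the bulls. Without the liver labelled bull 3 the log2 fold change was -0.89 (LRT adjusted p = 0.447). In fat, where DIO1 had 25 reads, the log2 fold change of bulls to cows was -0.092 with the library of bull 5 and -0.61 without it (LRT adjusted p = 1 and 0.917).

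Cows 1, 2 and 3 also lay above cows 4 and 5 in other liver genes. NR1D1, a repressor of the circadian clock that cycles with the time of day, had 84.3, 92.4 and 68.3 CPM in the livers of cows 1, 2 and 3 and 11.4 and 13.3 CPM in those of cows 4 and 5. Bulls 1 to 5 had 20.6, 9.49, 8.86, 9.44 and 46.2 CPM of NR1D1. CYP7A1 is the rate-limiting enzyme of bile acid synthesis and a gene that thyroid hormone regulates in liver. It had 409, 498 and 436 CPM in cows 1, 2 and 3, 70.2 and 52.4 CPM in cows 4 and 5, and 10.9 to 82.7 CPM in bulls. The range of the bulls includes the liver labelled bull 3. Without that library the log2 fold change of CYP7A1 moved from -3.14 to -3.92. The bulls did not follow one order, since bull 5 had the highest NR1D1 of the bulls and 390 CPM of DIO1. The part of these genes in the spread of DIO1 was not tested.

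**Figure D2:**
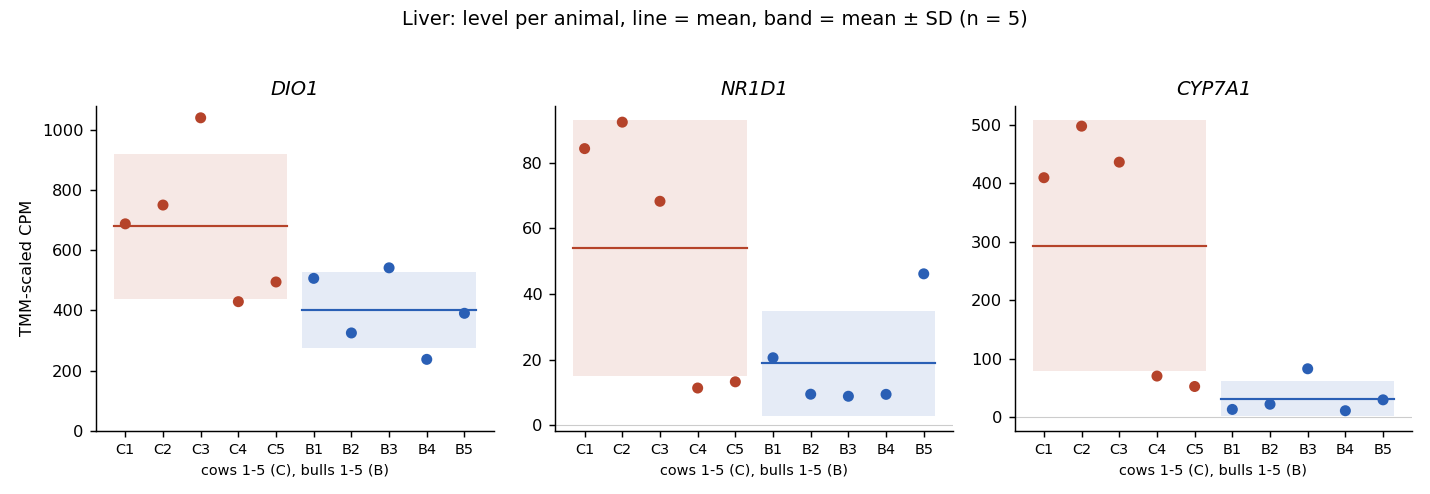
Liver expression of DIO1, NR1D1 and CYP7A1 in cows 1 to 5 (C, red) and bulls 1 to 5 (B, blue) in TMM-scaled CPM. The lines are means and the bands the mean ± SD of 5 animals. Cows 1, 2 and 3 lay above cows 4 and 5 in all 3 genes.

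DIO2, which makes active T3 within the cell, was a pituitary transcript. In the pituitary gland, cows 1 to 5 had 41.6, 49.4, 23.1, 18.3 and 21.1 CPM and bulls 1 to 5 had 18.8, 25.9, 17.7, 15.9 and 21.6 CPM. Cows 1 and 2 were the highest of the 10 animals, and the other 3 cows lay within the range of the bulls. The means were 30.7 ± 13.9 CPM (SD, n = 5) in cows and 19.97 ± 3.89 CPM in bulls, a log2 fold change of -0.62 (SE 0.28), which did not pass the test (LRT adjusted p = 0.460).

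Outside the pituitary gland DIO2 was close to the limit of detection. The 10 livers held 2 reads in all, both in bulls, and the 5 livers of cows held 0 of 54288578 reads, which allows up to 0.0553 CPM. Fat held 17 reads and muscle 28. Pooled reads were 1955 times higher in pituitary gland than in liver (95% interval 541 to 16148), 231 times higher than in fat (144 to 397) and 127 times higher than in muscle (88.0 to 192). The pooled ratios use library sizes without TMM factors, and their intervals cover counting error only. The fitted log2 fold changes of liver, fat and muscle against pituitary gland were -9.58, -7.63 and -6.06 (edgeR quasi-likelihood adjusted p of at most 2.88e-16).

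The few DIO2 reads in muscle and fat can be set beside those of pituitary markers in the same tissues. Relative to the pituitary gland, and by library size, DIO2 stood at 0.764% in muscle and 0.416% in fat, while 8 markers of the anterior pituitary, TSHB, GH1 and PRL among them, stood at 0.0252 to 0.0532% in muscle and 0.0277 to 0.103% in fat. In liver DIO2 was at 0.0668% and the 8 markers at 0.0296 to 0.0945%. Whether the DIO2 reads came from the tissues themselves was not tested. Muscle exceeded liver by a log2 fold change of 3.52 and fat by 1.57 (edgeR quasi-likelihood adjusted p = 5.76e-05 and 0.00858). The latter call was lost with library sizes in place of TMM factors, at a log2 fold change of -0.81 of fat to muscle and an adjusted p of 0.170. Fat against liver had a log2 fold change of 1.95 (adjusted p = 0.0310), and without the fat library of bull 5, which held 6 of the 17 reads, its adjusted p was 0.121. The call was lost in 4 of 10 fits that dropped an animal, those without bulls 3, 4 and 5 and cow 4 (adjusted p = 0.0605, 0.0948, 0.150 and 0.0610).

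In muscle, bulls 1 to 5 held 4, 7, 3, 2 and 4 reads of DIO2 and cows 1 to 5 held 0, 3, 0, 3 and 2. The bulls' mean of 0.621 ± 0.185 CPM against 0.193 ± 0.191 CPM in cows gave a log2 fold change of 1.59 (SE 0.73), with an LRT adjusted p of 0.303. In fat the log2 fold change was 1.80 (adjusted p = 0.712) with the library of bull 5 and 1.28 (adjusted p = 0.775) without it. The fitted sex difference of DIO2 was thus positive in muscle and fat and negative in pituitary gland. The interaction of sex and tissue, which tests whether the sex difference differs between tissues, had an LRT adjusted p of 0.101, so that a difference between tissues was not shown.

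DIO3, the inactivating deiodinase, was low in every tissue and spread widely between animals. It is a gene best known from placenta, fetal tissues and brain. In the pituitary gland, cows 1 to 5 had 4.54, 5.24, 3.04, 2.50 and 16.3 CPM, and bulls 1 to 5 had 7.52, 1.61, 5.88, 3.70 and 3.07 CPM. In fat, cows had 0.236 to 2.49 CPM, while bulls 1 to 5 had 12.6, 1.22, 0.641, 2.10 and 1.39 CPM. A single animal stood out in either tissue, cow 5 in the pituitary gland with 239 reads and bull 1 in fat with 139. Muscle had 0.508 to 4.996 CPM and liver 0 to 0.842 CPM, with at most 8 reads in a liver.

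By tissue means, DIO3 was highest in pituitary gland (5.34 ± 4.24 CPM, SD, n = 10), followed by fat (2.42 ± 3.64 CPM), muscle (2.32 ± 1.64 CPM) and liver (0.329 ± 0.334 CPM). Liver was below each of the other tissues, with log2 fold changes of -4.04 to pituitary gland, -2.83 to muscle and -2.82 to fat (edgeR quasi-likelihood adjusted p of at most 0.000139). The difference between fat and muscle did not pass (log2 fold change -0.0044, 95% interval -1.03 to 1.02, adjusted p = 1). Their difference from pituitary gland, -1.22 and -1.21, just passed (adjusted p = 0.0387 and 0.0390) and was lost in 6 of 10 fits that left out 1 animal, in both cases. Over those fits the adjusted p of fat against pituitary gland ranged from 0.000665 to 0.198.

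DIO3 showed no sex difference that passed the test in any tissue. The fitted log2 fold change was 1.47 in fat (SE 0.82, LRT adjusted p = 0.749) and fell to 0.059 without bull 1, while without the library of bull 5 it was 1.67 (adjusted p = 0.616). In pituitary gland it was -0.54 (adjusted p = 0.741) and 0.18 without cow 5. In liver it was 0.31 (adjusted p = 1) and -0.13 without the library labelled bull 3, and in muscle -0.29 (adjusted p = 0.960).

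The reads of the activating and the inactivating deiodinase can be set against each other within a pituitary library, where the ratio is free of library scaling. The ratio of DIO2 to DIO3 reads was 9.15, 9.42, 7.60, 7.34 and 1.29 in cows 1 to 5 and 2.49, 16.03, 3.01, 4.298 and 7.04 in bulls 1 to 5. Cow 5 had the lowest ratio and bull 2 the highest, and the sexes overlapped over most of the range. The ratio was taken up after the values had been seen and was not tested, and its size also depends on the lengths of the transcripts.

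**Figure D3:**
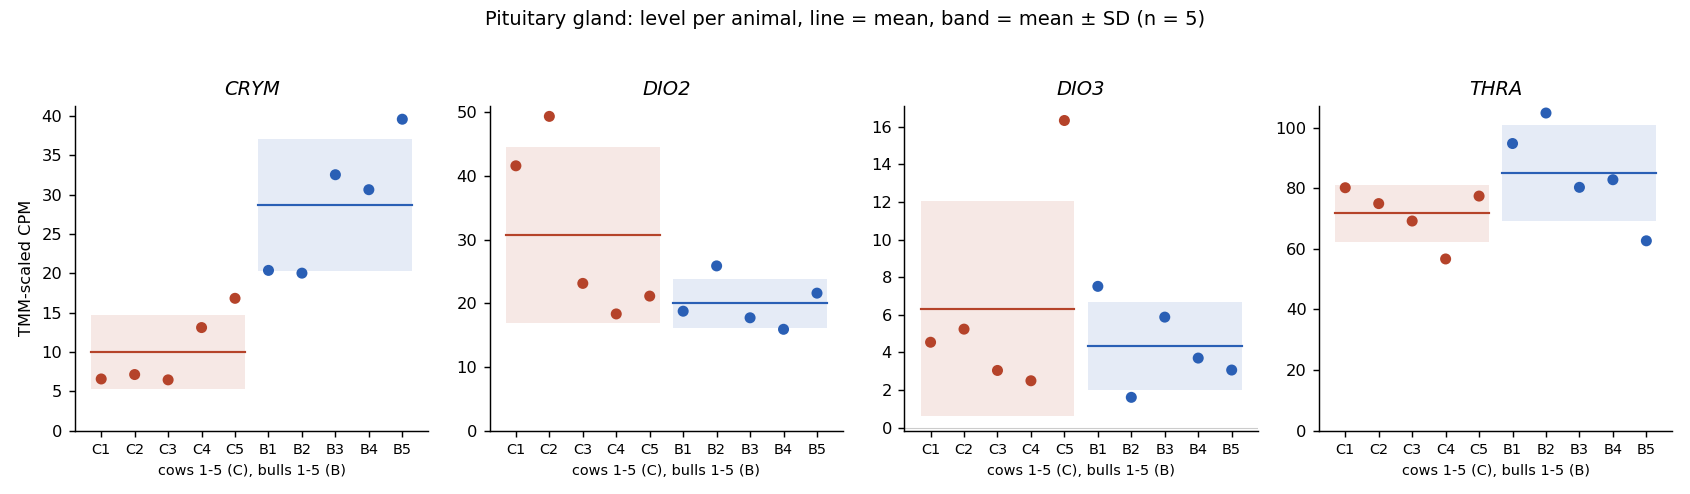
Expression of CRYM, DIO2, DIO3 and THRA in the pituitary gland of cows 1 to 5 (C, red) and bulls 1 to 5 (B, blue) in TMM-scaled CPM. The lines are means and the bands the mean ± SD of 5 animals. The 5 bulls lay above the 5 cows in CRYM, and the sexes overlapped in the other 3 genes.

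THRA, the receptor alpha of heart, muscle and brain, was present in all 40 libraries with at least 219 reads. In muscle, cows 1 to 5 had 88.4, 134, 121, 132 and 102 CPM and bulls 1 to 5 had 111, 141, 120, 97.6 and 174 CPM. The pituitary gland had 56.7 to 105 CPM, liver 29.9 to 88.8 CPM and fat 26.7 to 79.8 CPM. The means were 122 ± 24.8 CPM (SD, n = 10) in muscle, 78.4 ± 14.2 CPM in pituitary gland, 48.7 ± 17.6 CPM in liver and 45.3 ± 17.7 CPM in fat.

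With TMM factors, muscle exceeded pituitary gland by a log2 fold change of 0.64, liver by 1.32 and fat by 1.43, and pituitary gland exceeded liver by 0.68 and fat by 0.79 (edgeR quasi-likelihood adjusted p between 2.56e-08 and 0.00320). The difference of liver to fat did not pass (0.11, 95% interval -0.26 to 0.48, adjusted p = 0.627). The place of pituitary gland rested on the scaling. With library sizes alone the mean was 109 CPM in pituitary gland and 89.3 CPM in muscle, the log2 fold change of muscle to pituitary gland was -0.29 (adjusted p = 0.225), and liver was below fat by 0.59 on the log2 scale (adjusted p = 0.0145). That scaling moved the median of all tested genes in muscle against pituitary gland from -0.031 to -0.89 on the log2 scale. In either scaling, muscle and pituitary gland both exceeded liver and fat in THRA with a call.

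No sex difference of THRA passed the test. The log2 fold changes were -0.23 in liver (95% interval -0.83 to 0.37), 0.17 in fat (-0.57 to 0.92), 0.16 in muscle (-0.35 to 0.67) and 0.25 in pituitary gland (-0.11 to 0.61), with LRT adjusted p-values of at least 0.691. Without the liver labelled bull 3 the value in liver was -0.19, and without the fat library of bull 5 that in fat was 0.32. The gene model of THRA overlaps that of NR1D1 on the other strand in RefSeq's gene models for ARS-UCD2.0. Whether the counting used strand is not stated, so reads in the shared stretch cannot be assigned with certainty. NR1D1 spanned 4.29 to 103 CPM in fat, where THRA spanned 26.7 to 79.8 CPM. Whether reads of NR1D1 entered the counts of THRA was not tested.

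CRYM was the member with a sex difference, in the pituitary gland. Cows 1 to 5 had 6.56, 7.13, 6.45, 13.1 and 16.8 CPM and bulls 1 to 5 had 20.4, 20.02, 32.5, 30.6 and 39.6 CPM. Each bull thus lay above each cow, and the lowest bull exceeded the highest cow by a factor of 1.19. Cows 4 and 5, at 13.1 and 16.8 CPM, lay above cows 1, 2 and 3, at 6.45 to 7.13 CPM. The part of that split among cows in the sex difference was not tested. The means were 10.01 ± 4.71 CPM (SD, n = 5) in cows and 28.6 ± 8.39 CPM in bulls, so that CRYM was 2.85-fold higher in bulls (log2 fold change 1.51, SE 0.32, LRT adjusted p = 0.00198). It was the only one of the 5 genes called in M1 of pituitary gland, where 0.745% of all tested genes were called and 0.555% were higher in bulls. Of all tested genes, 1.34% had sexes that did not overlap there.

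The call of CRYM held in each of the 10 fits that left out 1 animal, with log2 fold changes of 1.37 to 1.78 and adjusted p-values of at most 0.0222, and in DESeq2 (adjusted p = 0.00137). It was lost in edgeR's quasi-likelihood test, which called 12 genes in the whole table and gave CRYM an adjusted p of 0.138. In liver the sexes had 11.6 ± 1.17 CPM in cows and 13.4 ± 3.20 CPM in bulls (log2 fold change 0.23, LRT adjusted p = 0.961, and 0.17 without the library labelled bull 3). In fat and muscle CRYM was low, at 0.0787 to 2.27 CPM, and did not pass the test (log2 fold change -0.42 and 0.66, adjusted p = 0.960 and 0.764). Without the fat library of bull 5 the value in fat was -0.63 (adjusted p = 0.904). The interaction of sex and tissue had an LRT adjusted p of 0.429, so the sex difference of CRYM was not shown to differ between tissues.

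A few cell type markers were also called for sex in the pituitary libraries. There 0.745% of all tested genes were called, and the sexes did not overlap in 1.34%. Of 8 markers of the anterior pituitary, 1 was called, CGA, which encodes the alpha subunit shared by thyrotropin and the gonadotropins and was higher in bulls. The 8 markers summed to 82844 to 265854 CPM in cows and 143868 to 286084 CPM in bulls, and none was at 0. Of 2 hypothalamic neuron RNAs, AVP was called, with a log2 fold change of 2.49 (LRT adjusted p = 0.00320), and AVP and OXT together had 0.0725 to 0.624 CPM in cows and 1.15 to 1.83 CPM in bulls. Of 5 muscle markers, MYH7 was called, and the 5 summed to 9.71 to 28.1 CPM in cows and 19.2 to 60.1 CPM in bulls. The 4 glial markers, with none called, summed to 88.8 to 213 CPM in cows and 107 to 186 CPM in bulls. The 4 leukocyte markers, with none called, summed to 18.7 to 65.8 CPM in cows and 12.7 to 36.7 CPM in bulls. The part of these cells in the difference of CRYM was not tested.

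Between tissues, CRYM was highest in pituitary gland and liver. The pituitary gland had a mean of 19.3 ± 11.7 CPM (SD, n = 10) and liver 12.5 ± 2.46 CPM, a difference that did not pass with TMM factors (liver to pituitary gland -0.52, 95% interval -1.20 to 0.17, adjusted p = 0.202) and passed with library sizes alone (-1.36, adjusted p = 0.000845). Fat and muscle had 0.854 ± 0.708 and 0.820 ± 0.522 CPM, and their difference did not pass with TMM factors (adjusted p = 0.736) and passed with library sizes alone (fat to muscle 1.01, adjusted p = 0.0352). Liver exceeded them 13.8-fold and 15.7-fold, and pituitary gland 19.7-fold and 22.5-fold (fitted folds, edgeR quasi-likelihood adjusted p of at most 5.48e-11).

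**Figure D4:**
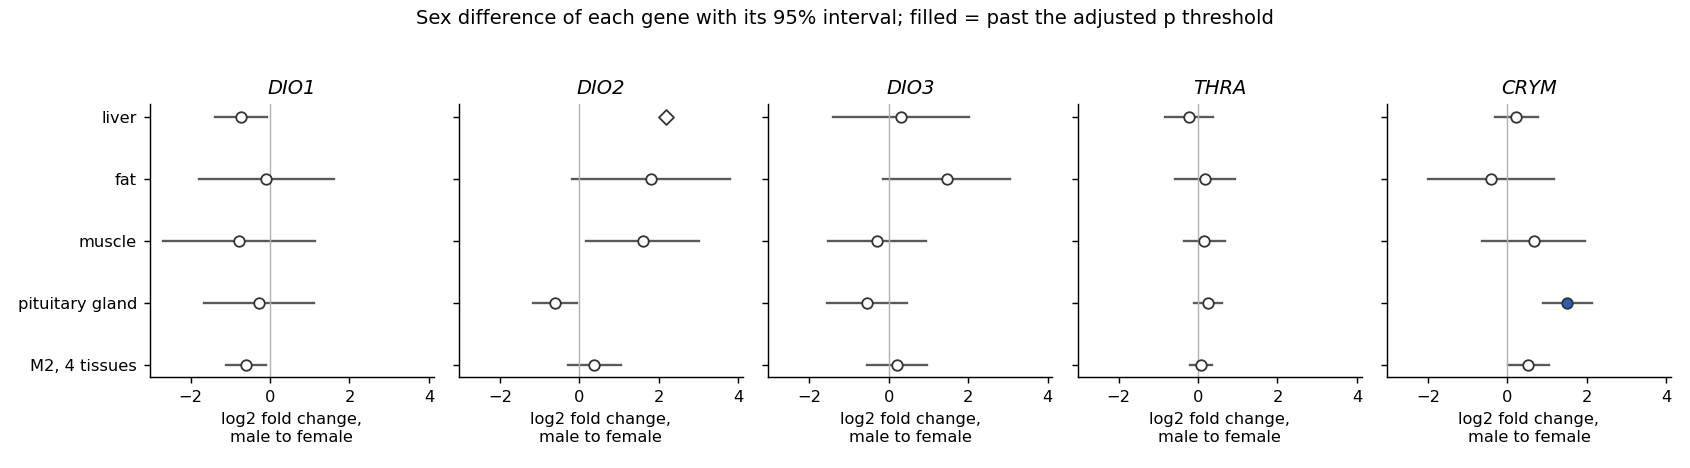
Log2 fold change male to female of DIO1, DIO2, DIO3, THRA and CRYM in M1 of each tissue and in M2, which joins the 4 tissues, with 95% intervals as bars on a common axis. The filled point marks the comparison past an adjusted p of 0.05, and the diamond a value without an interval because cows had 0 reads. Only CRYM in pituitary gland passed.

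Across the sex comparisons, M1 called 0 of the 5 genes in liver, where 0.175% of all tested genes were called, 0 in fat (0.114% of all), 0 in muscle (0.517% of all) and 1 in pituitary gland. Without adjustment, the edgeR LRT had a p under 0.05 for DIO1 in liver, for DIO2 in fat and in muscle, and for CRYM and DIO2 in pituitary gland. DESeq2 and the quasi-likelihood test also called 0 of the 5 in liver, fat and muscle. M2, with sex and tissue as terms over all 40 libraries, called 0 of the 5 against 1.69% of all tested genes, with 1 gene, DIO1, at an unadjusted p under 0.05. DIO1 in M2 had a log2 fold change of -0.60 (SE 0.26, LRT adjusted p = 0.194). It passed in 1 of 10 fits that left out an animal, that without cow 4 (-0.76, adjusted p = 0.0439), and it stayed above the threshold without the liver labelled bull 3 (-0.66, adjusted p = 0.176). The interaction called 0 of the 5 against 0.335% of all tested genes, with DIO2 and CRYM under 0.05 without adjustment, and the quasi-likelihood test called 0 genes of the whole table.

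Between tissues most genes differed, and so did most of the 5. Of the 5 genes, 4 were called between liver and fat (64.3% of all tested genes), 5 between liver and muscle (62.1%), 4 between liver and pituitary gland (64.5%), 2 between fat and muscle (59.6%), 4 between fat and pituitary gland (64.6%) and 4 between muscle and pituitary gland (64%). With the animal as a block the counts were the same. DIO2 and THRA were the genes called between fat and muscle.

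The wider thyroid hormone pathway was read from 71 listed genes in 8 lists, of which 55 were tested. In M1 of pituitary gland 4 of the 55 were called (7.27%, against 0.745% of all tested genes). Of these, 3 were higher (0.555% of all) and 1 lower (0.19% of all) in bulls. The median log2 fold change was 0.024 over the 55 and 0 over all tested genes. The 4 were CGA, TRHR, SLCO1C1 and MYH7, the last also a muscle marker. In liver 1 was called (1.82%, against 0.175% of all tested genes). In fat and muscle 0 were called with edgeR's LRT (0.114% and 0.517% of all). M2 called 3 (5.45%, against 1.69% of all), with 1 higher (0.335% of all) and 2 lower (1.35% of all) in bulls. The interaction called 1 (1.82%, against 0.335% of all). These lists were drawn up with earlier results of the same data known.

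The thyroid axis of the pituitary gland was measured in 8 genes, of which CGA rose and TRHR fell in bulls. TRHR, the receptor through which hypothalamic TRH stimulates thyrotropin release, had 37.0, 36.9, 39.3, 19.5 and 12.5 CPM in cows 1 to 5 and 20.9, 12.6, 6.42, 5.82 and 9.59 CPM in bulls 1 to 5. Cows 1, 2 and 3 lay above every bull, as they did in liver DIO1, and cows 4 and 5 lay within the range of the bulls. The log2 fold change was -1.39 (SE 0.38, LRT adjusted p = 0.0394), and the call was lost in 7 of 10 fits without 1 animal and in the quasi-likelihood test (adjusted p = 0.248).

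CGA had 1339 to 3053 CPM in cows, and bulls 1 to 5 had 8418, 6657, 12625, 14537 and 1465 CPM. Bull 5 lay within the range of the cows, and the other 4 bulls lay above every cow. The log2 fold change was 1.84 (SE 0.44, LRT adjusted p = 0.0125), and the call was lost in 4 of 10 fits without 1 animal (cows 2 and 3 and bulls 3 and 4, adjusted p of at most 0.0750) and in the quasi-likelihood test (adjusted p = 0.242). TSHB, the specific subunit of thyrotropin, had 826, 549, 191, 456 and 633 CPM in cows and 825, 469, 688, 792 and 150 CPM in bulls (log2 fold change 0.15, 95% interval -0.67 to 0.96, LRT adjusted p = 0.940). FSHB and LHB, the specific subunits of the gonadotropins that share CGA, were not called. Their means were 399 and 85.1 CPM in cows and 1234 and 202 CPM in bulls. POU1F1, the factor that drives thyrotroph, lactotroph and somatotroph genes, had means of 76.8 CPM in cows and 44.6 CPM in bulls (log2 fold change -0.79, adjusted p = 0.163).

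**Figure D5:**
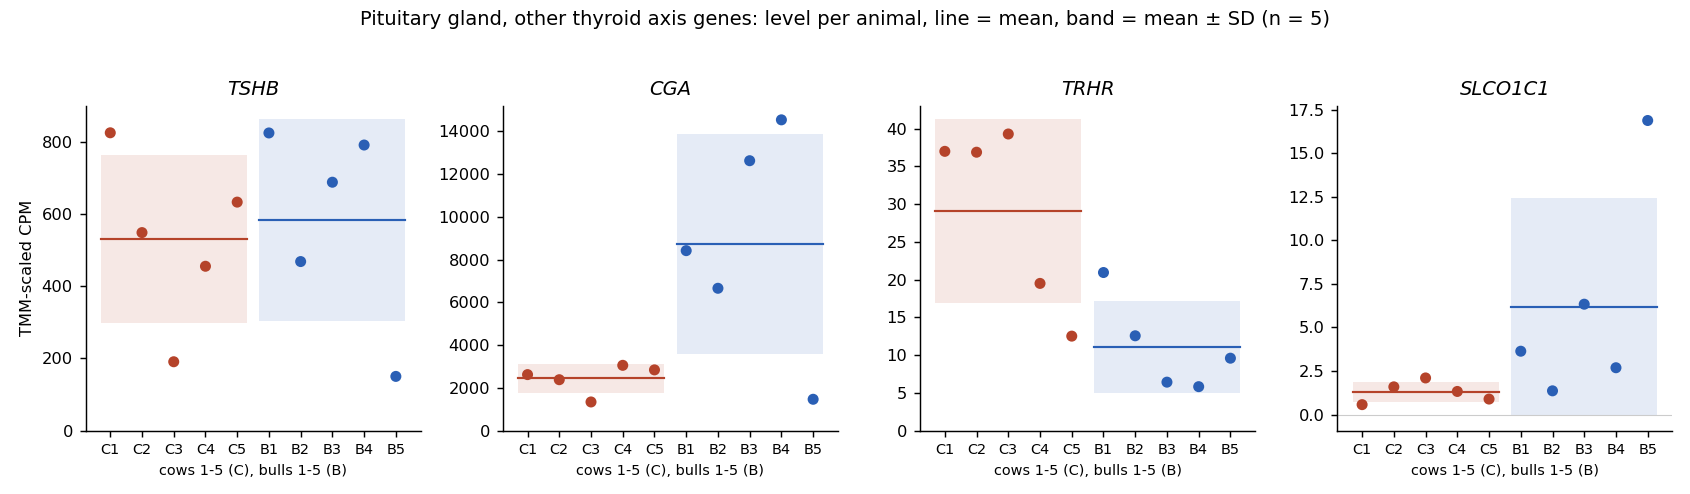
Expression of TSHB, CGA, TRHR and SLCO1C1 in the pituitary gland of cows 1 to 5 (C, red) and bulls 1 to 5 (B, blue) in TMM-scaled CPM. The lines are means and the bands the mean ± SD of 5 animals. TSHB overlapped between the sexes, 4 of 5 bulls lay above the cows in CGA, and cows 1, 2 and 3 lay above the bulls in TRHR.

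Of 8 membrane transporters tested, SLCO1C1, a T4 carrier of brain vessels, rose in the pituitary gland of bulls. Cows had 0.568 to 2.10 CPM, and bulls 1 to 5 had 3.64, 1.36, 6.34, 2.69 and 16.9 CPM, with bull 2 within the range of the cows. Its log2 fold change was 2.25 (SE 0.58, LRT adjusted p = 0.0334), or 1.44 without bull 5 (adjusted p = 0.154), and the call was lost in 6 of 10 such fits, with library sizes alone (adjusted p = 0.0727) and in the quasi-likelihood test (adjusted p = 0.248). It was also the gene of the lists with an interaction of sex and tissue past the threshold (LRT adjusted p = 0.0213, and 0.182 in the quasi-likelihood test), and in muscle its log2 fold change was -2.81 (adjusted p = 0.160). SLC10A1 was a liver gene (904 CPM in cows and 886 CPM in bulls), and SLC3A2 was highest in muscle (251.6 CPM in cows and 182 CPM in bulls). SLC7A8 was highest in muscle in cows, at 545 CPM, and in bulls it had 102 CPM in muscle and 104 CPM in pituitary gland.

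The plasma carriers of thyroid hormone were liver genes and none of the 3 was called for sex. ALB had means of 116864 CPM in the livers of cows and 117521 CPM in those of bulls, TTR 2377 and 2784 CPM, and SERPINA7, which encodes thyroxine-binding globulin, 112 and 150 CPM. Outside liver SERPINA7 was at most 0.0632 CPM on average in a group.

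Of 17 genes that thyroid hormone regulates, CYP7A1 fell in the livers of bulls (log2 fold change -3.14, SE 0.62, LRT adjusted p = 0.00448). The call held without the liver labelled bull 3 (-3.92, adjusted p = 4.73e-06) and in DESeq2 (adjusted p = 0.0274), and it was lost in the quasi-likelihood test (adjusted p = 0.334). MYH7, the slow myosin heavy chain, was higher in the pituitary gland of bulls (LRT adjusted p = 0.00837). It had 5.61 to 7.60 CPM in cows and 9.48 to 23.2 CPM in bulls. The call was lost with library sizes alone (adjusted p = 0.118) and in the quasi-likelihood test (adjusted p = 0.146). In muscle the log2 fold change of MYH7 was 0.99 (adjusted p = 0.609). MYH7 was also a muscle marker, with a mean of 11.1 CPM in pituitary gland and 12861 CPM in muscle. In pituitary gland the muscle markers ACTA1, CKM, MB and TNNT3, with no call, had means of 0.931 to 3.82 CPM in cows. Their means in bulls were 3.46 to 14.4 CPM. The part of muscle RNA in the call of MYH7 was not tested. In M2, CYP7A1 (-2.70, adjusted p = 0.000635) and UCP3, a mitochondrial carrier of muscle (-1.17, adjusted p = 0.0359), were lower in bulls, and CGA was higher (1.204, adjusted p = 0.0432). In voom with the animal as a random block their adjusted p-values were 0.0861, 0.322 and 0.293, so that none of the 3 calls of M2 was kept. That fit changed the test as well as adding the block, and their parts in the loss cannot be told apart. CGA was also lost in M2 without the liver labelled bull 3 (adjusted p = 0.0552). UCP3 had means of 1183 CPM in the muscle of cows and 566 CPM in that of bulls. In the other tissues its group means were at most 0.577 CPM. M1 of muscle did not call UCP3 (log2 fold change -1.05, LRT adjusted p = 0.383). THRSP, the lipogenic gene named for its response to thyroid hormone, was highest in fat, with means of 2583 CPM in cows and 3780 CPM in bulls, and KLF9, a transcription factor that T3 induces, in muscle, with 209 and 129 CPM, and neither passed the sex test in any tissue. The calcium pumps ATP2A1 and ATP2A2 had means of 15575 and 3149 CPM in the muscle of cows and 10551 and 6320 CPM in that of bulls, with no call.

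The remaining lists held no call. Among 7 receptor partners and coregulators, the corepressor NCOR1 was highest in muscle (342 CPM in cows and 326 CPM in bulls), as was MED1 of the Mediator complex (150 and 143 CPM), and the coactivator NCOA1 was lowest in fat (45.5 and 45.7 CPM). Among 5 genes of selenoprotein synthesis and selenium handling, SEPP1, the plasma selenoprotein, was highest in liver (7540 CPM in cows and 5394 CPM in bulls), and SEPHS2, which makes the selenium donor, likewise (157 and 138 CPM), as was SELENBP1 (212 and 140 CPM). Of 4 genes of the ubiquitin system that acts on the DIO2 protein, the deubiquitinase USP33 was highest in pituitary gland (116 and 87.3 CPM), and UBE2G2 in fat (120 and 146 CPM). USP20 was highest in fat in cows (96.2 CPM) and had 49.2 CPM in both fat and pituitary gland of bulls. Of the neighbours of the members, NR1D1 had the lowest unadjusted p for sex, with a log2 fold change of -1.10 in M2 (LRT adjusted p = 0.0777). MEG3 and DLK1, imprinted genes of the cluster that holds DIO3, were highest in pituitary gland, at 669 and 551 CPM and at 33.4 and 57.1 CPM, and DIO3OS was not analysed here.

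Genes whose levels followed the members over the 40 libraries were picked by Pearson r of log2(CPM + 0.5) among genes with a mean of at least 1 CPM. Most of this likeness is that of tissues, since the 40 libraries fall into 4 tissues. DIO1 was closest to BBOX1 (r = 0.998), the last enzyme of carnitine synthesis, PRHOXNB (0.997) and TDO2 (0.996), which starts tryptophan breakdown. DIO2 was closest to CADPS (0.985), SNAP91 (0.985) and NOL4 (0.984), the first a priming factor of dense-core vesicle release and the second a clathrin adaptor of neurons. Among the genes closest to CRYM were ATP6V0E2 (0.942) and KRT8 (0.928), a keratin of simple epithelia, and THRA was closest to ASB1 (0.889), RNF157 (0.887) and NR3C2 (0.875), the mineralocorticoid receptor. DIO3 had the lowest values, with KCNK12 (0.816) and DUSP14 (0.812) among its closest.

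Across the 10 animals, 3 relations were tested by permutation. In the pituitary gland TSHB and DIO2 gave r = 0.0428 (permutation p = 0.931, adjusted p = 0.931) and rho = -0.164 (permutation p = 0.657, adjusted p = 0.657). TSHB and THRA gave r = 0.540 (permutation p = 0.103, adjusted p = 0.310) and rho = 0.636 (permutation p = 0.0540, adjusted p = 0.162), and r was 0.307 without the 2 animals farthest from the median of TSHB. In liver THRSP and DIO1 gave r = 0.372 (permutation p = 0.290, adjusted p = 0.435) and rho = 0.321 (permutation p = 0.367, adjusted p = 0.550), and r was 0.118 without the 2 farthest animals. Within the sexes r was 0.421 in cows and -0.532 in bulls for TSHB and DIO2, 0.431 and 0.683 for TSHB and THRA, and 0.316 and 0.178 for THRSP and DIO1, with 5 animals each. No relation passed the correction for 3.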

How the data were processed

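Poly-A RNA of 40 libraries was sequenced as paired-end reads. The authors used Trimmomatic on the reads, TopHat2 with Bowtie2 for alignment to bosTau7, and HTSeq for counting on genes. They deposited 1 table of raw counts per library by gene symbol. The counting mode and strandedness are not given in the sources used here. A row without a gene name (0.114 to 2.69% of a library's reads on this row and named genes together) was not used.

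Genes were kept where the 40 libraries together held 1 read or more (13148). Sex was tested in edgeR 4.0.16 (R 4.3.3) with TMM factors, estimateDisp, a prior count of 0.125 and the likelihood ratio test that the study used: M1 within a tissue, M2 with sex and tissue, and the interaction. Tissues were compared with edgeR's quasi-likelihood test over all 40 libraries. P-values were Benjamini-Hochberg adjusted over all tested genes, with a threshold of 0.05. Standard errors came from the fitted model, and intervals are 95%. Levels are TMM-scaled CPM over the 40 libraries, and a level within one library is limited at 3 reads. Relations used 100000 permutations and at least 10 reads in every library. Fits were tested on simulated data first. Alternatives were the quasi-likelihood test, DESeq2 1.42.0, RLE factors, library sizes alone, filterByExpr, the animal as a block (voom of limma 3.58.1 in M2), and leaving out libraries or animals.

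The 4 libraries of an animal were tied together by sex and replicate number. Under that tie, the liver labelled bull 3 had 0 reads on the Y-linked genes DDX3Y, USP9Y and ZFY. The fat, muscle and pituitary gland of bull 3 had 488, 331 and 1067. In M2, limma's consensus within-animal correlation over genes was 0.104. No 2 libraries were identical. Named genes were the members, genes of the lists that were called or had the 3 highest means, 8 genes fixed by name, and the 3 genes most like each member. A few genes picked by these rules are not reported here. AVP was named after its values were seen. The members and lists were chosen with earlier results of these data known. Gene symbols of the 5 members matched RefSeq's ARS-UCD2.0 annotation, which was used for neighbours alone.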

Additional observations from a re-analysis of the deposited data

Results flagged for a closer look

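There were 40 groups of 5 libraries, from 5 genes in 2 sexes and 4 tissues. Among them 3 held a library far from the other 4 by Dixon's criterion, all of them for DIO3. DIO2 in liver of either sex and in fat of cows had under 3 reads in every library and was not examined. For normally distributed values, which was not checked here, chance alone marks about 1 group in 20. In the livers of cows, cow 4 had 0.842 CPM against 0.273 CPM in the next animal, a value of 6 reads. In the fat of bulls, bull 1 had 12.6 CPM against 2.10 CPM in the next animal. In the pituitary gland of cows, cow 5 had 16.3 CPM against 5.24 CPM in the next animal. The animals differed between the tissues, and cow 5 had 0.236 CPM of DIO3 in fat and bull 1 had 7.52 CPM in pituitary gland.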

How the results depend on the processing

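The 5 genes were refitted under each alternative. With the quasi-likelihood test, 0 of the 5 were called in pituitary gland in place of 1, and without cow 4, 1 was called in M2 in place of 0. With the animal as a replicate block, the tissue comparisons called 4, 5, 4, 2, 4 and 4 of the 5, as before, and no member's call changed. M2 with that block, fitted with voom in place of edgeR, called 0 of the 5. It called 8 genes of the whole table in place of 222, against 77 in the quasi-likelihood test and 717 with library sizes alone. The LRT called 98 genes in pituitary gland, the quasi-likelihood test 12.

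Directions that changed belonged to differences that had not passed, except for THRA between muscle and pituitary gland, which turned to -0.29 with library sizes alone. With those sizes DIO1 of fat to muscle was 0.52, DIO1 of muscle to pituitary gland -0.40, THRA of liver to fat -0.59 and THRA in M2 -0.068. DIO3 of fat to muscle turned to 0.022 in DESeq2, 0.024 with RLE factors, 0.87 with library sizes, 0.16 with filterByExpr, 0.010 without the liver of bull 3 and 0.077 without the fat of bull 5, and DIO1 of fat to pituitary gland to -0.037 without the fat of bull 5. The cause was not tested.

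Leaving out 1 library or animal gave ranges that crossed 0 for DIO1 in fat (-0.61 to 0.19), DIO3 in liver (-0.22 to 1.10), muscle (-0.64 to 0.073), pituitary gland (-0.82 to 0.18) and M2 (-0.30 to 0.47), DIO3 of fat to muscle (-0.69 to 0.31), THRA in liver (-0.38 to 0.012), fat (-0.079 to 0.42) and M2 (-0.024 to 0.15), THRA of liver to fat (-0.095 to 0.27), CRYM in fat (-0.82 to 0.14), CRYM of fat to muscle (-0.17 to 0.38) and the r of TSHB with DIO2 (-0.149 to 0.165). The call of THRA between muscle and pituitary gland was lost without bull 5 (adjusted p = 0.0651).

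Depth limits DIO1 outside liver, DIO2 outside pituitary gland and DIO3 in liver to a few reads per library. The ratio of DIO2 to DIO1 was not tested, as no tissue had 3 reads of both in every library. The ratios of THRB to THRA, and the relations that involve THRB or DIO1 in pituitary gland, were not run.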
